A study of Homo sapiens with 18 samples.

Results

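The genes described here encode the cullin-RING ubiquitin ligases other than those built on CUL2 and CUL5, together with the enzymes that attach the ubiquitin-like protein NEDD8 to cullins and the complex that removes it. There are 34 of them among the 20365 genes of each deposited table, taken by symbol from a list of such genes. No measured value entered that rule, but the list was drawn up with earlier results of these data known. They are 6 cullins, 7 adaptors, ubiquitin-conjugating enzymes or substrate receptors, 2 exchange factors, 10 genes of neddylation and 9 subunits of the COP9 signalosome. All 34 passed the filter on low values in both experiments, a mean of at least 10 normalised counts over 9 libraries.

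A cullin is a long scaffold that holds a RING protein and its ubiquitin-conjugating enzyme at one end and, through an adaptor, a substrate receptor at the other. CUL1 works with SKP1 and F-box proteins, CUL3 with BTB proteins, and CUL4A and CUL4B with DDB1 and its DCAF receptors. Elongin B and Elongin C are the adaptor pair of the CUL2 and CUL5 ligases, which recruit receptors carrying a BC-box, and they also belong to the Elongin transcription factor. The ligases of both kinds share the outline of their activation cycle. NEDD8 is joined to the cullin by the NAE1-UBA3 activating enzyme and a conjugating enzyme such as UBE2M, with the help of DCN1-like proteins. The COP9 signalosome cleaves NEDD8 off again, and CAND1 exchanges the substrate receptors of cullins that lack NEDD8.

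The study used PC3, a human prostate cancer cell line, and its RNA-seq comprises 18 libraries in 6 groups of 3. In one experiment lentiviral shRNA vectors targeted Elongin B in the group called EloB KD and Elongin C in the group called EloC KD, beside a Control KD group, all in RPMI with 10% serum. In the other, cells in 2.5% serum were exposed for 24 h to a 12.5 µM dose of a WT peptide, a mutant peptide or a scrambled peptide; the series' title speaks of peptides that inhibit Elongin BC. The number of hairpins or clones per target and the time after infection are not given in the labels used here, and whether the 3 libraries of a group came from separate cultures is not stated either, so each p-value measures only the spread between these libraries. In bulk RNA, a change in the share of cells and a change per cell cannot be told apart.

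Counted reads per library numbered 40288528 to 57225737 in the knockdown experiment and 31671205 to 34699856 in the peptide experiment. The targeted genes followed the labels: ELOB fell from 3898 ± 1177 to 537 ± 59.0 normalised counts (SD, n = 3) in EloB KD, and ELOC from 4480 ± 355 to 516 ± 36.6 in EloC KD. The keratin genes KRT8, KRT18 and KRT19 were between 1981 and 26400 normalised counts in every library, VIM was at least 39600, and the prostate luminal gene KLK3 was at 0 in all 18. Of 10 genes that mark leukocytes, endothelium, fibroblasts or liver, CD68, PECAM1, COL1A1 and COL1A2 had 36.4 or more normalised counts in every library and the other 6 had at most 24.6. The summed level of the 10 genes was 4413 to 5238 in Control KD, 4959 to 5525 in EloB KD and 6144 to 6878 in EloC KD. In the peptide experiment the sum was 3632 to 4050 with the scrambled, 3086 to 3475 with the mutant and 2733 to 3310 with the WT peptide. The part of these sums in the results was not tested. The 3 EloC KD libraries stood apart from the other 6 on the first principal component (51.2% of the variance), and replicate 2 of each peptide group stood apart from the other 6 libraries of its experiment (44.0%).

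In Control KD, levels per kilobase of each gene's principal transcript spanned from 41.6 ± 2.87 normalised counts per kb for CAND2 to 7652 ± 778 for NEDD8. Among the cullins, CUL4B was highest at 4782 ± 699 per kb, followed by CUL4A at 2589 ± 110, CUL1 at 2360 ± 103, CUL3 at 728 ± 27.5, CUL7 at 361 ± 67.6 and CUL9 at 219 ± 19.6. DDB1, the adaptor of the CUL4 ligases, stood at 6123 ± 543 per kb. SKP1, the adaptor of CUL1, stood at 799 ± 46.5 per kb, on a principal transcript of 9474 bases that is the second longest among the members. The catalytic COP9 subunit COPS5 was at 3663 ± 339 per kb and its partner COPS6 at 7191 ± 188, above the other 7 subunits, which ranged from 852 ± 19.3 (COPS7B) to 2634 ± 102 (COPS3). The order of genes depends on the transcript taken for each, the longest of its best-ranked principal transcripts. COPS2 had more normalised counts in Control KD than COPS5 (7039 ± 347 against 5421 ± 501), on a length of 6628 bases against 1480. SENP8, the protease that matures NEDD8 and removes it from non-cullin proteins, was at 48.9 ± 0.785 per kb, the lowest member after CAND2.

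**Figure D1:**
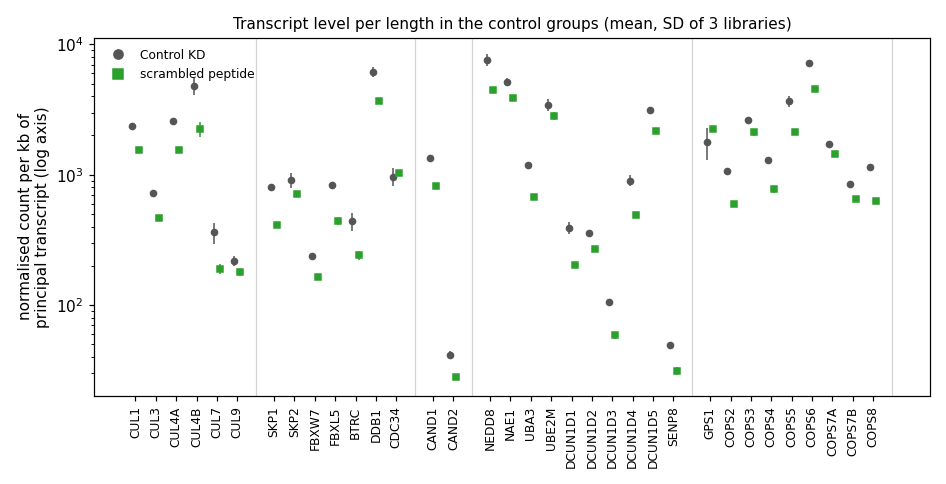
Normalised count per kilobase of principal transcript (log axis) of the 34 genes in the control group of each experiment, ordered by role; points are means and bars SDs of 3 libraries. NEDD8, COPS6 and DDB1 lie highest in Control KD and CAND2 and SENP8 lowest; the experiments were normalised separately, so their levels are not compared.

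After Elongin C knockdown, 19 of the 34 genes changed, 11 higher and 8 lower (limma on log2(normalised count + 1), adjusted p under 0.05 over all genes tested); 42.5% of the 13764 genes tested were called in this comparison, 21.3% higher and 21.2% lower. The calls included both subunits of the NEDD8-activating enzyme, CUL3 and CUL7, and the COP9 subunits COPS6 and COPS7A, all lower, and the receptors FBXW7 and BTRC and the ubiquitin-conjugating enzyme CDC34, all higher. The median log2 fold change of the 34 was 0.02, against 0.01 over all genes; the members' changes ran from -1.0 (CUL7) to 0.86 (BTRC). Of the 19 calls, 11 held at the same threshold in each of 16 other analyses (other pseudocounts, filters, scalings and tools, a replicate block, and the omission of each library): CUL3, CUL7, FBXW7, BTRC, CDC34, NAE1, UBA3, DCUN1D1, DCUN1D3, COPS6 and COPS7A. The share of all called genes that held in each of the 16 was not counted, here or for the other comparisons. A replicate block brought the count to 24 (57% of all genes in that fit), with SKP1, CAND2 and SENP8 added as lower and SKP2 and NEDD8 as higher, and the EloC KD and Control KD libraries did not overlap for 25 members (53.7% of all genes). Without replicate 2 of EloC KD the count was 11.

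Both subunits of the enzyme that activates NEDD8 fell together. NAE1, its regulatory subunit, had 9058, 9189 and 10145 normalised counts in the Control KD libraries, 8755, 10414 and 10314 in EloB KD, and 5744, 5503 and 6243 in EloC KD. The EloC KD libraries were all below the other 6, which overlapped, and the log2 fold change against Control KD was -0.70 ± 0.09 (SE; limma, adjusted p = 0.000284). UBA3, the catalytic subunit, had 2720, 2469 and 2524 normalised counts in Control KD, 2514, 2697 and 2643 in EloB KD, and 1572, 1387 and 1528 in EloC KD. It showed the same arrangement of libraries, with a log2 fold change of -0.78 ± 0.09 (limma, adjusted p = 9.46e-05).

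Of the 10 genes of neddylation, limma called 3 higher and 2 lower in EloC KD, beside 21.3% and 21.2% of all genes. The 2 lower were NAE1 and UBA3, so the other 8 held the 3 higher calls and 0 lower. SENP8, at a log2 difference of -0.38 ± 0.14, was not called by limma in the main fit. It was lower by DESeq2 (adjusted p = 0.0454), by limma with a replicate block (0.0259) and in the authors' deposited table (0.0459). SENP8 shares 160 exonic bases with MYO9A on the other strand, and MYO9A was at -0.50 in EloC KD. NEDD8 itself had 5901, 5535 and 4818 normalised counts in Control KD and 6164, 6743 and 6137 in EloC KD, a log2 difference of 0.23 ± 0.10 that did not pass (limma, adjusted p = 0.0908; 0.0492 with a replicate block). Its exons share 488 bases with the readthrough gene NEDD8-MDP1 on the same strand. NEDD8-MDP1 had a mean of 0 normalised counts in every group, so no read in the shared bases was counted for it. Whether such reads were counted for NEDD8 or left out is not given. UBE2M, a NEDD8-conjugating enzyme, differed by -0.13 ± 0.11 on the log2 scale, with a 95% interval from -0.36 to 0.11. Of the 5 DCN1-like genes, whose proteins help load NEDD8 onto cullins, 3 rose: DCUN1D3 by 0.56 ± 0.12 on the log2 scale (adjusted p = 0.00418), DCUN1D1 by 0.38 ± 0.09 (0.00828) and DCUN1D5 by 0.31 ± 0.09 (0.0177; not called without replicate 2 of Control KD or of EloC KD). DCUN1D3 had 685, 623 and 633 normalised counts in Control KD and 1021, 1010 and 838 in EloC KD, with no overlap. Its exons overlap those of LYRM1 on the other strand by 181 bases, and LYRM1 moved the opposite way, by -1.23 on the log2 scale. DCUN1D3 also shares 146 exonic bases with ERI2 on the same strand, and ERI2 was at -0.37. DCUN1D2 and DCUN1D4 were not called, at 0.12 ± 0.10 and 0.02 ± 0.10.

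Among the cullins, limma called 4 of 6 lower in EloC KD and 0 higher, beside 21.2% and 21.3% of all genes. CUL3, the scaffold of the BTB-protein ligases, had 4738, 5106 and 4883 normalised counts in Control KD, 5038, 5532 and 5176 in EloB KD, and 2819, 2822 and 2935 in EloC KD. Its log2 fold change was -0.78 ± 0.08 (limma, adjusted p = 5.12e-05), a fall of 41.7%, and the 3 EloC KD libraries lay closer to one another than the libraries of either other group. CUL7, which pairs with the F-box protein FBXW8, had 1755, 2303 and 1639 normalised counts in Control KD, 1468, 1425 and 1266 in EloB KD, and 1034, 890 and 899 in EloC KD. The 3 groups did not overlap, with the highest values in Control KD and the lowest in EloC KD. The log2 fold change in EloC KD was -1.0 ± 0.14 (limma, adjusted p = 0.000283). CUL7 shares 329 exonic bases with KLC4 on the other strand, and KLC4 was at -0.32 in EloC KD and 0.21 in EloB KD. The CUL7-related CUL9 fell by 0.40 ± 0.12 on the log2 scale (adjusted p = 0.0181) and CUL1 by 0.27 ± 0.09 (0.0319). The CUL9 and CUL1 calls were each lost without replicate 2 of EloC KD and without 2 or more other libraries in turn. CUL4A and CUL4B were not called, at -0.06 ± 0.08 and 0.15 ± 0.13.

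The RefSeq sequence upstream of the start sites is shown for NAE1, UBA3 and CUL3, which have the smallest adjusted p among the neddylation genes and the cullins in EloC KD and were not called in EloB KD, and for DDB1, which was called lower in EloB KD and not called in EloC KD; these 4 were picked after their values were seen. Each run covers the 200 bases from 250 to 51 before the RefSeq start, on build GRCh38.p14, 5′ to 3′ on the gene's strand, all 4 on the minus strand. The windows are chr16:66831027-66831226 for NAE1, chr3:69080416-69080615 for UBA3, chr2:224585414-224585613 for CUL3 and chr11:61333156-61333355 for DDB1. None touches an annotated exon of GENCODE v29; those of NAE1 and DDB1 lie inside the span of a longer transcript of the gene, and those of UBA3 and CUL3 outside the gene. Capitals mark matches to any of 10 short motifs searched on both strands.
NAE1: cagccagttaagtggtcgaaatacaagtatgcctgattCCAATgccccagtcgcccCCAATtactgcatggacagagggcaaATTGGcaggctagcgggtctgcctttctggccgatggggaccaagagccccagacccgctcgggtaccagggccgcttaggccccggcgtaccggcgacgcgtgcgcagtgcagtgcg
UBA3: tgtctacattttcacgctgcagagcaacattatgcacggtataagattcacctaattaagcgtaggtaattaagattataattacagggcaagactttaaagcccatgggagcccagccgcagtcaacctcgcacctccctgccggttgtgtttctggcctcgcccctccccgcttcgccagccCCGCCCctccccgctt
CUL3: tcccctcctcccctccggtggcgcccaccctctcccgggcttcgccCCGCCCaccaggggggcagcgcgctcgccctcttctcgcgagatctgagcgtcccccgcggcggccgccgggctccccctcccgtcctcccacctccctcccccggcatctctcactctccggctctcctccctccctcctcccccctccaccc
DDB1: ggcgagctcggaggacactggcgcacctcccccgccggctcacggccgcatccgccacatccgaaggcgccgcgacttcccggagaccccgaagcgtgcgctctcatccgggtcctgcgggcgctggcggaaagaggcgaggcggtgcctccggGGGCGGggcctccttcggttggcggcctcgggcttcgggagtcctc

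The motifs were the CCAAT box (CCAAT), the GC box (GGGCGG), the TATA box (TATAAA), the E-box (CACGTG), the core of the hypoxia response element (ACGTG, which also lies within the E-box), the cAMP response element (TGACGTCA), an ETS site (CCGGAAGT), a YY1 site (AAGATGGCG), the core of the antioxidant response element (TGACNNNGC) and the NRF1 site, named without its letters. The NAE1 window held 3 matches to CCAAT, 2 on the gene's strand and 1 on the other, and none to the GC box. UBA3, CUL3 and DDB1 each held 1 GC box and no CCAAT. Over all 35114 RefSeq windows of this length, 27.4% held CCAAT and 35% the GC box; of the 31 members with a window, 7 held CCAAT and 17 the GC box. GC content was 62.5% for NAE1, 53.5% for UBA3, 77% for CUL3 and 75% for DDB1. The 3 windows of the members that fell in EloC KD thus differed in base composition, and UBA3 and CUL3 held the same motif as DDB1.

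Of the 7 adaptors, ubiquitin-conjugating enzymes and receptors, limma called 4 higher in EloC KD and 0 lower (21.3% and 21.2% of all genes): the receptors FBXW7, BTRC and FBXL5, and CDC34, which serves the SCF (the CUL1-SKP1-F-box ligase). The receptor SKP2 was not called. FBXW7, the F-box receptor for cyclin E and MYC, had 919, 825 and 902 normalised counts in Control KD, 789, 729 and 838 in EloB KD, and 1649, 1580 and 1385 in EloC KD. Its EloC KD libraries were all above the other 6, at a log2 fold change of 0.80 ± 0.11 (limma, adjusted p = 0.000271). BTRC, the receptor for phosphorylated β-catenin and IκB, had 3193, 2412 and 2490 normalised counts in Control KD, 3644, 2534 and 2932 in EloB KD, and 5545, 4909 and 4188 in EloC KD, a log2 fold change of 0.86 ± 0.16 (adjusted p = 0.00163). In each group replicate 1 was the highest library for BTRC. CDC34, which builds ubiquitin chains on SCF substrates, had 1172, 1505 and 1586 normalised counts in Control KD, 1960, 1831 and 1867 in EloB KD, and 2212, 2909 and 2581 in EloC KD. The 3 groups did not overlap, and the log2 fold change in EloC KD was 0.86 ± 0.13 (adjusted p = 0.000608). FBXL5, the receptor that degrades the iron regulator IRP2, rose by 0.33 ± 0.09 on the log2 scale (adjusted p = 0.0131), and was not called without replicate 2 of Control KD or of EloC KD. FBXL5 shares 18 exonic bases with FAM200B on the other strand, which rose by 0.64. The adaptors SKP1 and DDB1 were not called, at -0.22 ± 0.08 (adjusted p = 0.0548; 0.0168 with a replicate block) and -0.10 ± 0.11, and neither was the exchange factor CAND1, at -0.07 ± 0.10.

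Of the 9 COP9 signalosome subunits, limma called 4 higher and 2 lower in EloC KD, beside 21.3% and 21.2% of all genes, and 3 were not called. COPS7A, a PCI-domain subunit, had 3541, 3585 and 3775 normalised counts in Control KD, 2544, 2960 and 3242 in EloB KD, and 1989, 1740 and 2225 in EloC KD. The 3 groups did not overlap, and the EloC KD log2 fold change was -0.88 ± 0.12 (limma, adjusted p = 0.000236). Its paralog COPS7B had 2184, 2112 and 2206 normalised counts in Control KD and 2615, 2560 and 2451 in EloC KD, a rise of 0.23 ± 0.08 on the log2 scale (adjusted p = 0.0318). The COPS7B call was lost under quantile scaling, in a fit of the 2 groups alone and without any of 5 single libraries. The 2 paralogs can take the same place in the complex; per kilobase, COPS7A exceeded COPS7B in Control KD (1708 ± 58.6 against 852 ± 19.3), whereas in EloC KD they stood at 933 ± 114 and 999 ± 32.8, which overlap within their SDs.

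COPS6, the subunit that pairs with the catalytic one, had 9987, 10436 and 10470 normalised counts in Control KD and 7307, 7332 and 8317 in EloC KD, a log2 fold change of -0.43 ± 0.10 (limma, adjusted p = 0.00559). The catalytic subunit COPS5 instead had 5932, 4930 and 5401 normalised counts in Control KD and 6483, 6618 and 6597 in EloC KD, a rise of 0.28 ± 0.09 on the log2 scale (adjusted p = 0.0298) that was lost without any of 5 single libraries. COPS5 shares 129 exonic bases with CSPP1 on the other strand, and CSPP1 was at 0.23 in EloC KD. COPS4 rose by 0.32 ± 0.10 (limma, adjusted p = 0.0214), and was not called without replicate 2 of Control KD or of EloC KD. GPS1, the subunit also called CSN1, had 2887, 4169 and 5134 normalised counts in Control KD and 5040, 6309 and 6323 in EloC KD, a log2 fold change of 0.57 ± 0.18 (adjusted p = 0.0261). Its groups overlapped, the Control KD libraries spread widely with replicate 1 lowest, as ELOB did there (2626, 4118 and 4950), and the call was lost without any of 3 single libraries. GPS1 shares 835 exonic bases with RFNG on the other strand, and RFNG was at 0.16 in EloC KD. COPS2, COPS3 and COPS8 were not called, with log2 differences of 0.16 ± 0.08, 0.02 ± 0.11 and -0.18 ± 0.10.

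**Figure D2:**
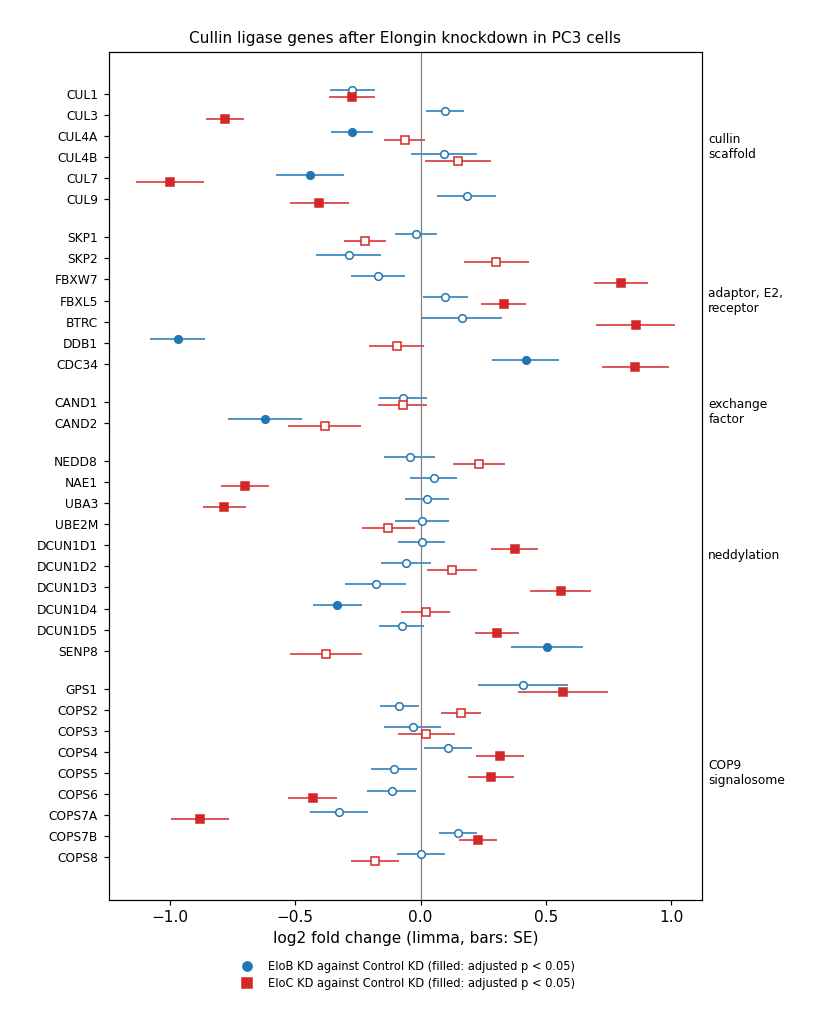
Log2 fold change of each of the 34 genes against Control KD in EloB KD (circles) and EloC KD (squares), by role, with bars of 1 SE from limma over 3 libraries a group; filled symbols passed adjusted p under 0.05. In EloC KD the cullins CUL3 and CUL7, NAE1, UBA3 and COPS7A lie between -1.0 and -0.70, and FBXW7, BTRC and CDC34 between 0.80 and 0.86; in EloB KD the largest change is DDB1 at -0.97.

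After Elongin B knockdown, 7 of the 34 genes changed, 2 higher and 5 lower, a share of 20.6% beside the 20.5% of all tested genes called in this comparison (9.34% higher, 11.2% lower). The clearest of these was DDB1, which fell by 48.9% and was the 1 call of the 7 that held in each of 16 other analyses. The fit with a replicate block called 11 members, 3 higher and 8 lower (36.3% of all genes in that fit): it added CUL1, SKP2 and COPS7A, lower, and GPS1, higher. The EloB KD and Control KD libraries did not overlap for 11 members (38.4% of all genes). Leaving out 1 library at a time left from 1 to 6 members called, with 1 without replicate 2 of Control KD.

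DDB1 had 27789, 29935 and 25052 normalised counts in Control KD, 12198, 14587 and 15654 in EloB KD, and 26066, 27172 and 24133 in EloC KD. The EloB KD libraries were all below the other 6, and the log2 fold change was -0.97 ± 0.11 (SE; limma, adjusted p = 0.000318), with a 95% interval from -1.21 to -0.72. In EloC KD the difference from Control KD was -0.10 ± 0.11, and the fit of EloB KD against EloC KD gave -0.87 ± 0.11 (adjusted p = 0.000142). DDB1 shares 521 exonic bases with TKFC on the other strand, and TKFC was at -0.04 in EloB KD. Of the CUL4 cullins that DDB1 serves, CUL4A fell by 0.27 ± 0.08 on the log2 scale in EloB KD (adjusted p = 0.0398), a call lost in 9 of 16 other analyses, among them TMM and quantile scaling, edgeR and the omission of 5 single libraries. The 437 exonic bases that CUL4A shares with PCID2 on the other strand could be counted for either gene unless the counting used strand, and PCID2 was at -0.28. CUL4B differed by 0.09 ± 0.13, with a 95% interval from -0.20 to 0.39.

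The other calls in EloB KD were smaller or rested on low counts. CAND2, a CAND1 paralog known from muscle, had 175, 200 and 195 normalised counts in Control KD, 124, 118 and 128 in EloB KD, and 154, 134 and 148 in EloC KD. It fell by 0.62 ± 0.15 on the log2 scale in EloB KD (limma, adjusted p = 0.0146; 0.0553 without replicate 2 of Control KD). CAND2 shares 320 exonic bases on the other strand with the ribosomal protein gene RPL32, which had a mean of 35363 normalised counts in Control KD and differed by -0.46 in EloB KD and by -0.37 in EloC KD, where CAND2 was at -0.38 ± 0.15 (adjusted p = 0.0574; 0.0324 with a replicate block). Whether strand was used in counting is not given in the sources used here, and the part of RPL32 reads in the CAND2 values was not tested. CUL7 fell by 0.44 ± 0.14 (adjusted p = 0.0430) and DCUN1D4 by 0.33 ± 0.10 (0.0343), and CDC34 rose by 0.42 ± 0.13 (0.0485). Each of these 3 calls was lost in at least 6 of the other analyses.

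SENP8 and SKP2 differed in opposite directions in the knockdowns. SENP8 had 205, 212 and 211 normalised counts in Control KD, 320, 267 and 307 in EloB KD, and 150, 153 and 181 in EloC KD. The 3 groups did not overlap; the rise in EloB KD was 0.50 ± 0.14 on the log2 scale (limma, adjusted p = 0.0313; lost in 7 of 16 other analyses), and the difference in EloC KD was -0.38 ± 0.14 (adjusted p = 0.0555; 0.0259 with a replicate block). MYO9A, which shares exonic bases with SENP8, was at -0.02 in EloB KD and -0.50 in EloC KD. SKP2, the F-box receptor for the cell cycle inhibitor p27, had 3153, 3187 and 3964 normalised counts in Control KD, 2316, 3072 and 3081 in EloB KD, and 4282, 3984 and 4371 in EloC KD. Neither of its knockdown groups passed against Control KD, with log2 differences of -0.29 ± 0.13 (adjusted p = 0.148; 0.0455 with a replicate block) and 0.30 ± 0.13 (0.0847; 0.0248 with a replicate block).

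**Figure D3:**
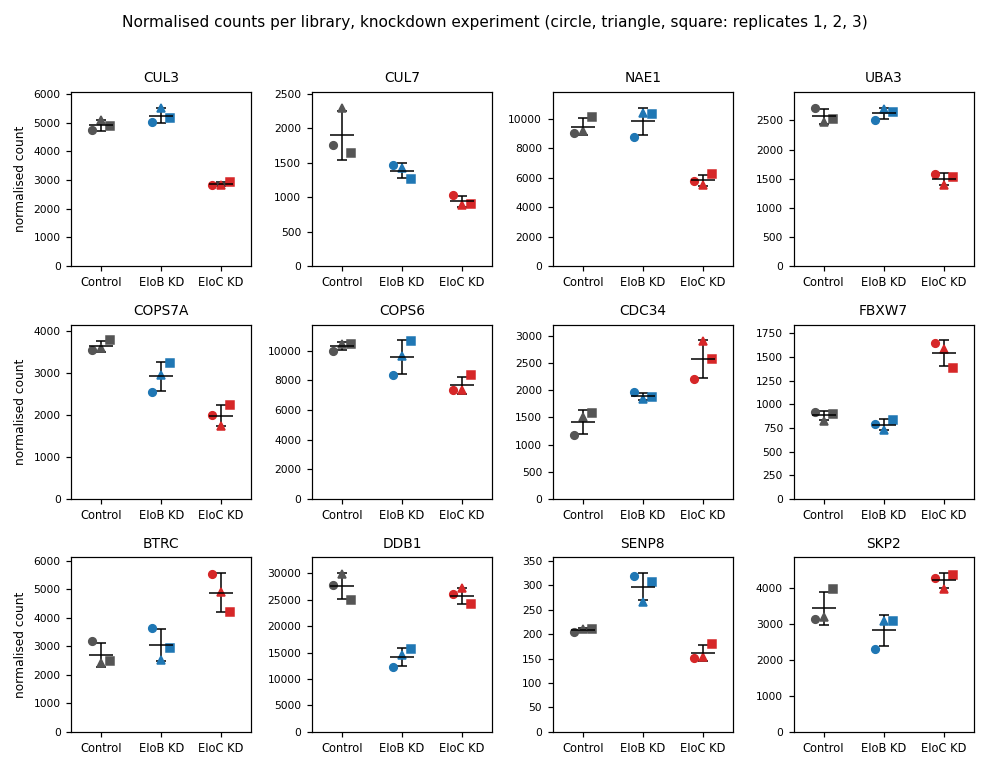
Normalised counts of 12 members in each library of the knockdown experiment, with axes that start at 0; symbols are replicates 1, 2 and 3, horizontal marks group means and bars SDs. CUL3, NAE1 and UBA3 are low in the 3 EloC KD libraries and DDB1 in the 3 EloB KD libraries, while SENP8 and SKP2 lie on opposite sides of Control KD in the knockdowns.

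The direct fit of EloB KD against EloC KD called 20 of the 34 genes, 8 higher in EloB KD and 12 lower, where 46.1% of all tested genes were called, 22.3% higher and 23.8% lower; with a replicate block it was 25 (59.4% of all genes), with CUL4A, SKP1, FBXL5, COPS4 and COPS8 added. The libraries of the knockdowns did not overlap for 27 members (56.3% of all genes). The comparison shares its libraries with the other 2, so its values stand beside them and are no separate support. CUL3 was higher in EloB KD by 0.88 ± 0.08 on the log2 scale (limma, adjusted p = 1.80e-05), UBA3 by 0.81 ± 0.09 (5.55e-05), NAE1 by 0.75 ± 0.09 (0.000142) and SENP8 by 0.88 ± 0.14 (0.000667). CUL9, CUL7, COPS7A and COPS6 were higher in EloB KD by 0.32 to 0.59 on the log2 scale. The lower calls were led by FBXW7, at a log2 difference of -0.97 ± 0.11 (adjusted p = 6.65e-05), and DDB1, at -0.87 ± 0.11 (0.000142), and DCUN1D3, BTRC, SKP2 and CDC34 had log2 differences of -0.74 ± 0.12, -0.69 ± 0.16, -0.59 ± 0.13 and -0.44 ± 0.13. The remaining lower calls, for COPS5, DCUN1D5, DCUN1D1, DCUN1D4, NEDD8 and COPS2, were between -0.39 and -0.25. Of the 20 calls, 15 held in each of 16 other analyses; COPS6, CDC34, DCUN1D4, NEDD8 and COPS2 did not. CUL7 and CDC34 were called in the same direction in both knockdowns, and 7 members, CUL4B, SKP1, CAND1, UBE2M, DCUN1D2, COPS3 and COPS8, were called in none of the 3 comparisons. The shares of all genes called in both knockdowns or in none of the comparisons were not counted. These counts therefore show nothing particular to the members.

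The wider sets of genes that work with these ligases held calls in both directions as well, at shares from below to above those over all genes. Among 15 other core genes and regulators, EloC KD called 5 higher and 2 lower (46.7%, beside 42.5% of all genes) and EloB KD called 1, lower (6.67%, beside 20.5%). ARIH1, a ligase that works with neddylated cullins, fell in both, by 0.81 ± 0.09 on the log2 scale in EloC KD (limma, adjusted p = 0.000110) and by 0.41 ± 0.09 in EloB KD (0.0118). In EloC KD RNF7, the RING partner of CUL5, rose by 0.62 ± 0.13 and UBE2G1, a ubiquitin-conjugating enzyme, by 0.32 ± 0.08, while NUB1, which lowers NEDD8, fell by 0.42 ± 0.08. Of 52 F-box genes tested, EloC KD called 8 higher and 9 lower (32.7%, beside 42.5% of all genes) and EloB KD 4 in each direction (15.4%, beside 20.5%). FBXO32, the muscle atrophy receptor atrogin-1, was at 475 ± 112 normalised counts in Control KD, 945 ± 298 in EloB KD and 1578 ± 285 in EloC KD, a rise of 1.74 ± 0.23 in the latter (adjusted p = 0.000241). FBXO36, FBXO25 and FBXO38 fell in EloC KD with log2 fold changes of -1.60 ± 0.18, -1.15 ± 0.15 and -0.96 ± 0.12.

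Of 43 BTB genes tested, receptors or likely receptors of CUL3, EloC KD called 6 higher and 12 lower (41.9%, beside 42.5% of all genes) and EloB KD 3 higher and 8 lower (25.6%, beside 20.5%). ENC1 had the smallest adjusted p in EloC KD (1.17e-05, limma), with 2719 ± 179 normalised counts against 6715 ± 314 in Control KD, a log2 fold change of -1.31 ± 0.10. RHOBTB1, KLHL11 and KLHL9 followed at -1.13 ± 0.11, -0.78 ± 0.09 and -0.64 ± 0.08. In EloB KD KCTD5 fell by 1.03 ± 0.13 on the log2 scale, RHOBTB3 by 0.97 ± 0.09 and KBTBD2 by 0.72 ± 0.10, and KLHL42 rose by 0.61 ± 0.11. Of 27 DCAF genes tested, receptors of CUL4-DDB1, EloC KD called 1 higher and 8 lower (33.3%, beside 42.5% of all genes), with the smallest adjusted p for DCAF11 at -0.80 ± 0.09, and EloB KD 2 in each direction (14.8%, beside 20.5%), with the smallest for WDTC1 at 0.50 ± 0.09. DDB2, the DNA damage receptor, fell by 0.47 ± 0.10 in EloC KD (adjusted p = 0.00375).

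None of the 34 genes was called after peptide treatment. In the comparison of the WT peptide with the scrambled peptide, limma called 0 of 34 beside 1.43% of the 13105 genes tested; 0 had an unadjusted p under 0.05 (13.4% of all genes), and edgeR and DESeq2 called 0. Mutant against scrambled peptide gave 0 of 34 beside 0% of all genes (1 member, SKP2, with an unadjusted p under 0.05, as for 8.71% of all genes), and WT against mutant peptide 0 of 34 beside 0% (0 with an unadjusted p under 0.05, against 6.85% of all genes); edgeR and DESeq2 called 0 in both. With a replicate block, SKP2 and COPS8 were higher and CUL7 lower with the WT peptide (3 of 34 beside 16.2% of all genes), and SKP2 was higher with the mutant peptide (1 of 34 beside 8.3%); between the WT and the mutant peptide it called 0 (4.09% of all genes).

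The intervals set how large a change these libraries leave room for. For the WT against the scrambled peptide, the 95% interval of 31 of the 34 genes lay within 1.3-fold in either direction and that of 33 within 1.5-fold. The gene with the widest interval was CAND2, with 126, 135 and 124 normalised counts under the scrambled peptide, 145, 139 and 104 under the mutant peptide and 118, 102 and 94.7 under the WT peptide. Its WT and scrambled groups did not overlap, and its log2 difference of -0.29 ± 0.15 had an interval from -0.63 to 0.04 (limma, adjusted p = 0.449). For the mutant peptide, all 34 intervals lay within 1.3-fold. In all, the WT and scrambled groups did not overlap for 5 members (19.7% of all genes): CUL3, SKP1 and NEDD8 with higher values under the WT peptide, CAND2 and SENP8 with lower ones. The mutant and scrambled groups did not overlap for 1 member, SKP2 (13.7% of all genes), and the WT and mutant groups for 0 (12.1%).

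SKP2 had 2803, 2522 and 2745 normalised counts under the scrambled peptide, 3023, 2968 and 3069 under the mutant peptide and 3025, 2718 and 3079 under the WT peptide. Its log2 difference from the scrambled peptide was 0.13 ± 0.06 for the WT peptide (limma, adjusted p = 0.393; 0.0292 with a replicate block) and 0.17 ± 0.06 for the mutant peptide (0.438; 0.0118 with a replicate block), with no overlap for the mutant peptide. Between the WT and the mutant peptide it differed by -0.04 ± 0.06, with an interval from -0.17 to 0.09. COPS8 was at 0.12 ± 0.07 under the WT peptide (adjusted p = 0.508; 0.0496 with a replicate block) and CUL7 at -0.16 ± 0.10 (0.569; 0.0498 with a replicate block), both with overlapping groups.

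The 6 members with the smallest adjusted p in EloC KD, and DDB1, were not called with the WT peptide. CUL3 had 3167, 2976 and 3224 normalised counts under the scrambled peptide and 3374, 3242 and 3367 under the WT peptide, with no overlap and a log2 difference of 0.09 ± 0.04 (limma, adjusted p = 0.409; 0.0693 with a replicate block). CUL7 had 1084, 911 and 974 under the scrambled peptide and 923, 790 and 948 under the WT peptide. FBXW7 had 641, 612 and 596 under the scrambled peptide and 626, 662 and 704 under the WT peptide. UBA3 had 1486, 1432 and 1452 normalised counts under the scrambled peptide and 1466, 1514 and 1524 under the WT peptide, and NAE1 7011, 7117 and 7283 against 7325, 7092 and 7074. DDB1 had 16906, 16240 and 16522 under the scrambled peptide and 17590, 16172 and 16963 under the WT peptide. COPS7A had 3038, 3199 and 3005 against 2986, 3227 and 3042. The groups of UBA3, NAE1, DDB1, COPS7A, CUL7 and FBXW7 overlapped. Of the F-box, BTB, DCAF and core lists, the WT peptide called 1 gene, CCNF, the cyclin F receptor, at 1470 ± 16.5 normalised counts against 997 ± 121 (log2 fold change 0.57 ± 0.08, limma, adjusted p = 0.00686).

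**Figure D4:**
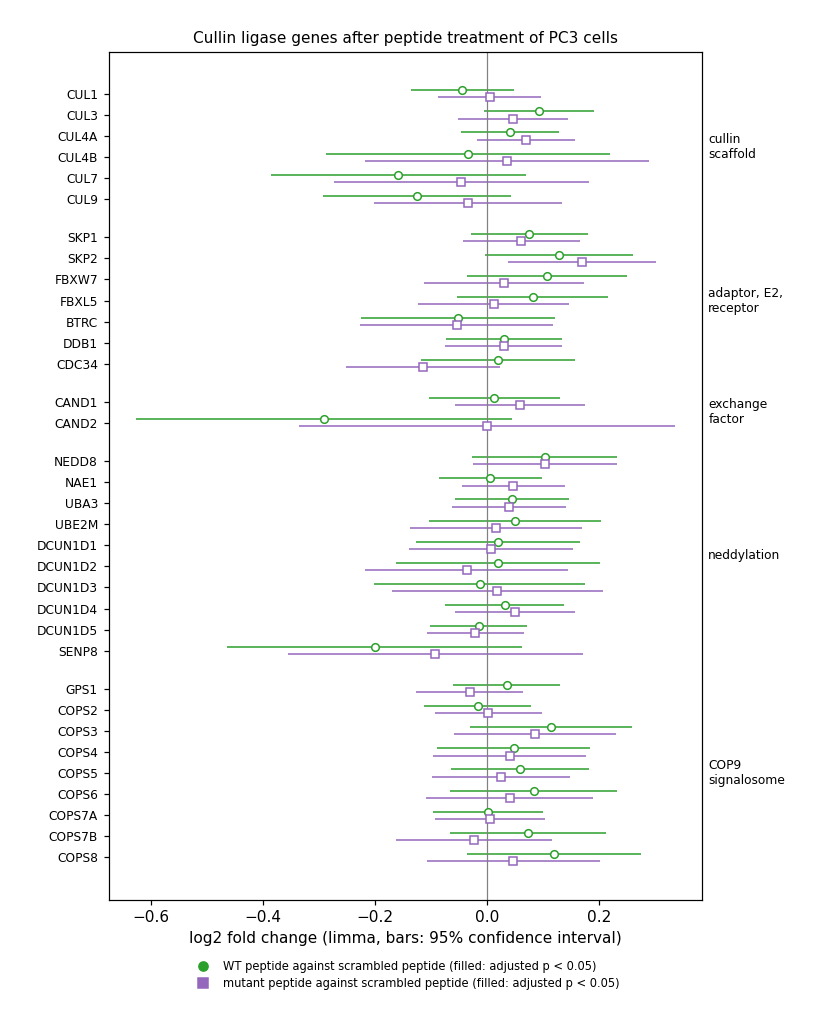
Log2 fold change of the 34 genes against the scrambled peptide under the WT peptide (circles) and the mutant peptide (squares), with 95% confidence intervals from limma over 3 libraries a group; no symbol is filled because no member passed adjusted p under 0.05. The widest interval is that of CAND2 under the WT peptide, from -0.63 to 0.04.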

How the data were processed

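RNA-seq of PC3 cells was available as 18 libraries in 6 groups of 3, made with a stranded kit per the labels' protocols. The submitters' processing notes name the build hg38 and the tools featureCounts (a read counter) and DESeq2; their versions, the aligner and the strand setting are not given in the sources used here. The authors deposited these normalised counts (a signal per gene) in 1 table per experiment, along with result tables of 4 comparisons, of which only the deposited adjusted p-value was used. Whole reads were recovered by division with the smallest step of a library for 100% of values (tolerance 0.05). Groups were compared per experiment with limma 3.58.1 (R 4.3.3, intensity trend, 3 groups sharing 1 spread) on log2(value + 1), 2-sided, where a gene's mean reached 10, with Benjamini-Hochberg adjustment over 13764 or 13105 genes and a threshold of 0.05. Alternatives were pseudocounts of 0.5 and 5, no filter or a mean of 50, TMM and quantile scaling, edgeR 4.0.16 and DESeq2 1.42.0 on recovered reads, the 2 compared groups alone, a replicate block, a threshold of 0.01 and omission of each library. Same-numbered libraries deviated together from their group means in both experiments. Knockdown correlations ran from 0.236 to 0.566 (other pairs -0.439 to 0.0703), and peptide ones from 0.254 to 0.715 (other pairs -0.546 to 0.336). The shared numbers were therefore read as a pairing, but the main fit left them out. Its calls, p-values and intervals take no account of the pairing, which entered only as the replicate block. All 34 members are named, with ELOB, ELOC and, of each wider list, up to 4 genes with the smallest adjusted p under 0.05; members and lists were chosen with earlier results of these data known. Transcript lengths and exon overlaps came from GENCODE v29 and upstream sequences from RefSeq (31 of 34 members matched).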

Additional observations from a re-analysis of the deposited data

Results flagged for a closer look

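SENP8 and SKP2 lay on opposite sides of Control KD in the knockdowns, with no overlap of any library between groups. For SENP8 the test of EloB KD against EloC KD gave a log2 difference of 0.88 ± 0.14 (limma, adjusted p = 0.000667), with 298 ± 27.4 normalised counts in EloB KD and 162 ± 16.9 in EloC KD (SD, n = 3). For SKP2 it gave -0.59 ± 0.13 (adjusted p = 0.00397), with 2823 ± 439 in EloB KD and 4212 ± 203 in EloC KD. Both differences held in each of 16 other analyses. Both genes were flagged for this same difference between the knockdowns, so its p-values and these analyses are no separate support. The libraries of the knockdowns did not overlap for 27 of the 34 members (56.3% of all genes). In the main fit, the difference between EloC KD and Control KD passed for neither gene (limma, adjusted p: SENP8 0.0555, SKP2 0.0847). With the replicate block it passed for both (0.0259 and 0.0248). DESeq2 called SENP8 there as well (0.0454). Limma also called SENP8 without replicate 3 of EloC KD, and SKP2 without replicate 3 of Control KD. SENP8 shares 160 exonic bases with MYO9A on the other strand, and MYO9A differed by 0.48 between the knockdowns in the same direction. Against Control KD, MYO9A was at -0.50 in EloC KD and -0.02 in EloB KD. The part of MYO9A reads in the SENP8 values was not tested.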

How the results depend on the processing

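No member called in the main analysis or in an alternative changed direction between them. The number of members called in EloB KD against Control KD, 7 of 34, was 3 under quantile scaling, 3 in a fit of the 2 groups alone, 11 with a replicate block, 1 at a threshold of 0.01 and from 1 to 6 with 1 library left out; DDB1 remained under each alternative. In EloC KD against Control KD, 19 of 34 became 11 at a threshold of 0.01 and from 11 to 17 with 1 library left out. In the peptide experiment the count of 0 became 3 with a replicate block for the WT and 1 for the mutant peptide against the scrambled one, and remained 0 under the other alternatives, the omission of each library included. Apart from the members it added, the replicate block changed no call. The authors' deposited tables called 8, 22 and 22 members in the knockdown comparisons and 0 for the WT peptide, and included each limma call. In the main fit, 20.5%, 42.5% and 46.1% of all genes were called in the knockdown comparisons. The share of all genes was not counted for the authors' results or for the alternatives other than the replicate block. Nor was it counted for calls that held in every alternative. Those counts therefore show nothing particular to the members.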
